A study of Mus musculus with 2 samples.

Results

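The ephrins are a family of 8 genes in the mouse, 5 whose proteins are held at the cell surface by a glycosylphosphatidylinositol (GPI) anchor (Efna1, Efna2, Efna3, Efna4 and Efna5) and 3 whose proteins cross the membrane (Efnb1, Efnb2 and Efnb3). They were chosen by family membership, though with earlier results of these data known. All 8 were found among the 30223 gene rows of the deposited single-cell table. The cells came from the hippocampus of C57Bl.6/J mice, either wild-type controls or mice homozygous for the knock-in allele Pigv341E of Pigv, which encodes an enzyme of GPI anchor synthesis. Both hippocampi of 4 mice per genotype, 8 hippocampi for each library, were dissociated mechanically in the cold, pooled by genotype and made into 1 droplet library each, and both libraries shared a sequencing lane. The age and the sex of the mice are not given in the sources used here, the genotypes were taken from the labels and not checked against the transcript, and the allele was present in every cell of the knock-in mice rather than in a chosen cell type. Each genotype was thus 1 library without a replicate, genotype and library cannot be told apart, and no difference between them was tested. All intervals below are exact Clopper-Pearson 95% intervals that cover counting error only.

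Ephrins are the surface-bound ligands of the Eph receptors, a large family of receptor tyrosine kinases, and signal on contact between neighbouring cells into the receptor-bearing cell and back into the ephrin-bearing cell. Ephrin-A proteins bind mainly EphA receptors, and ephrin-B proteins bind mainly EphB receptors, with EphA4 able to bind ligands of either kind. In the hippocampus the family is known for guiding axons to their targets, for shaping dendritic spines and for tuning synapses, partly through contacts between neurons and glia.

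The split between the anchored and the membrane-spanning ephrins can be read at the very end of their coding sequences, which are shown here because the enzyme encoded by Pigv works on the anchor that only the first kind carries. A GPI-anchored protein is made with a hydrophobic tail that is cut off when the anchor is added, whereas an ephrin-B ends in a short cytoplasmic tail whose last residues bind proteins with a PDZ domain. The lines give the last 60 coding bases before the stop codon of the principal GENCODE M21 transcript of each gene (GRCm38, coding strand), with the last 12 bases, or 4 codons, in capitals.
Efna1: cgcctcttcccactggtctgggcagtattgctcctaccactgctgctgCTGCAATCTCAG
Efna2: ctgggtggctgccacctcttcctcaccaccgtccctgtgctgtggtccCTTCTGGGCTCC
Efna3: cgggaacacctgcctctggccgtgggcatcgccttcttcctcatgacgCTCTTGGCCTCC
Efna4: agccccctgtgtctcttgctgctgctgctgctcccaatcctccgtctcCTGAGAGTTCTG
Efna5: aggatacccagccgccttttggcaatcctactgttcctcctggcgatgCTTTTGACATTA
Efnb1: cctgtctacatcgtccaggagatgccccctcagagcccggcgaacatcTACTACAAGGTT
Efnb2: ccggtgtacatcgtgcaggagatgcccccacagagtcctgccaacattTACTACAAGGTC
Efnb3: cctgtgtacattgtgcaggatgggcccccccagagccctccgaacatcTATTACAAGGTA

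The 3 ephrin-B ends were nearly the same sequence. Any pair of them shared 10 or 11 of the last 12 bases and 48 to 51 of the last 60. The 10 pairs of ephrin-A ends shared 3 to 9 of 12 bases and 16 to 29 of 60. The 15 mixed pairs shared 0 to 5 of 12 and 11 to 20 of 60. The ephrin-A coding sequences were also shorter, with 205 to 230 codons against 336 to 345 for the ephrin-B genes.

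In the genome (GRCm38, GENCODE M21, whole protein-coding genes) 3 of the ephrin-A genes are neighbours on the minus strand of chromosome 3. Efna1 lies at chr3:89271733-89281142, Efna3 at chr3:89313899-89322965 and Efna4 at chr3:89333390-89338028, within a stretch of 66.3 kb. The others stand apart, with Efna2 at chr10:80179482-80190010 (plus strand), Efna5 at chr17:62604184-62881317 (minus), Efnb1 at chrX:99136130-99148991 (plus), Efnb2 at chr8:8617434-8661242 (minus) and Efnb3 at chr11:69554092-69560205 (minus). Efna5 spans 277134 bases, while the other 7 genes span between 4639 and 43809 bases.

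There were 7094 wild-type and 8836 knock-in cells, with a median of 3122 and 3736 detected genes per cell and a median deposited total of 8631 and 9608. The deposited values were whole numbers corrected for depth by the authors, so 1 is not necessarily 1 molecule seen, and 28 cell barcodes occurred in both libraries. A level below is a gene's summed value in a group of cells per 10000 of all values summed there. Log2 ratios set the knock-in level over the wild-type one after 0.1 is added to each, and this makes changes of low genes look smaller. Cells fell into 37 clusters, made without the ephrins and Eph receptors, and marker genes gave 22 of them names that cover 12 classes of at least 50 cells in each library, plus a small class of newly formed oligodendrocyte-like cells. The names rest on markers and are written as "-like". The median mitochondrially encoded share per cell was 0.123% in wild-type against 0.219% in knock-in cells.

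Over all cells, Efna5 was the ephrin that stood apart between the libraries. Its level per 10000 was 1.01 in wild-type and 1.70 in knock-in cells, for a log2 ratio of 0.70. Without 1 unnamed cluster, described below, the levels were 0.964 and 1.20 and the log2 ratio 0.29, and with every cluster given the same weight in both libraries they were 1.28 and 1.38, a log2 ratio of 0.10. The other 7 ephrins lay between -0.054 (Efnb3) and 0.28 (Efna3) on the log2 scale. A gene was counted as past the size rule when its log2 ratio was at least 1 in size, its level at least 0.5 per 10000 and its share of cells above 0 at least 5% in 1 of the libraries. Efna5 was the 1 ephrin of 8 to reach the level and share limits over all cells, and 0 of 8 passed the rule, beside 0.266% of the 4141 genes that reached these limits. The median log2 ratio of those genes was -0.016, with 5% of them below -0.23 and 5% above 0.29.

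Shares of cells with a value above 0 moved mostly upward, as did those of most genes. All ephrins but Efna4, 7 of 8, were found in at least 1% of cells of 1 library. For 4 of these 7 (Efna2, Efna3, Efna5 and Efnb2) the share was higher in the knock-in library with intervals that did not overlap. For 0 of 7 it was lower. The share was higher in the same way for 55.0% of the 18154 genes found in at least 1% of cells of 1 library, and 7.60% of them were lower. The values of every cell were then drawn down at random to a total of 1000 (thinning). Only Efna5 of the 7 kept apart, at 6.37% (5.81 to 6.97%) in wild-type against 9.94% (9.32 to 10.6%) in knock-in cells. Of all these genes 8.05% were higher and 3.74% lower after thinning. The unthinned shares of Efna5 were 18.3% (17.4 to 19.3%) and 26.1% (25.2 to 27.0%).

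Efna5, which encodes ephrin-A5, a ligand best known for mapping axons in the visual system and for limiting their growth, was high in some neurons and in some cells that are not neurons. The highest levels among the named classes were those of the subicular or retrohippocampal pyramidal neuron-like cells, at 5.33 in wild-type against 6.95 in knock-in cells, and of the interneuron-like cells, at 5.19 and 4.6. The order of these classes is not fixed by the data, since in the wild-type library they differ by less than either differs between libraries. In the first class 71.7% of the 145 wild-type cells (63.7 to 78.9%) and 84.6% of the 208 knock-in cells (79.0 to 89.2%) had a value above 0, and in the second 67.5% of 154 cells (59.5 to 74.8%) and 71.3% of 254 cells (65.3 to 76.7%). These shares stayed high after thinning, at 33.8% and 41.8% in the first class and 27.9% and 26.0% in the second.

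The fibroblast-like cells came next, with Efna5 at 1.85 in wild-type against 1.83 in knock-in cells. In the other 9 classes the order differed between the libraries. CA3 pyramidal neuron-like cells were at 0.634 and 0.883, dentate granule neuron-like cells at 0.570 and 0.614, astrocyte-like cells at 0.561 and 0.762 and Cajal-Retzius cell-like cells at 0.449 and 0.176, the last being the lowest knock-in level of all classes. With finer clusters (resolution 2) the log2 ratio of the CA3 class was -0.35 in place of 0.42, so its direction depended on the clustering. The choroid plexus epithelium-like cells were at 0.296 and 0.781, microglia-like cells at 0.279 and 0.323, CA1 pyramidal neuron-like cells at 0.20 and 0.312, oligodendrocyte precursor-like cells at 0.182 and 0.278 and mature oligodendrocyte-like cells at 0.0772 and 0.234. The mature oligodendrocyte-like cells had the lowest level in the wild-type library only.

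**Figure D1:**
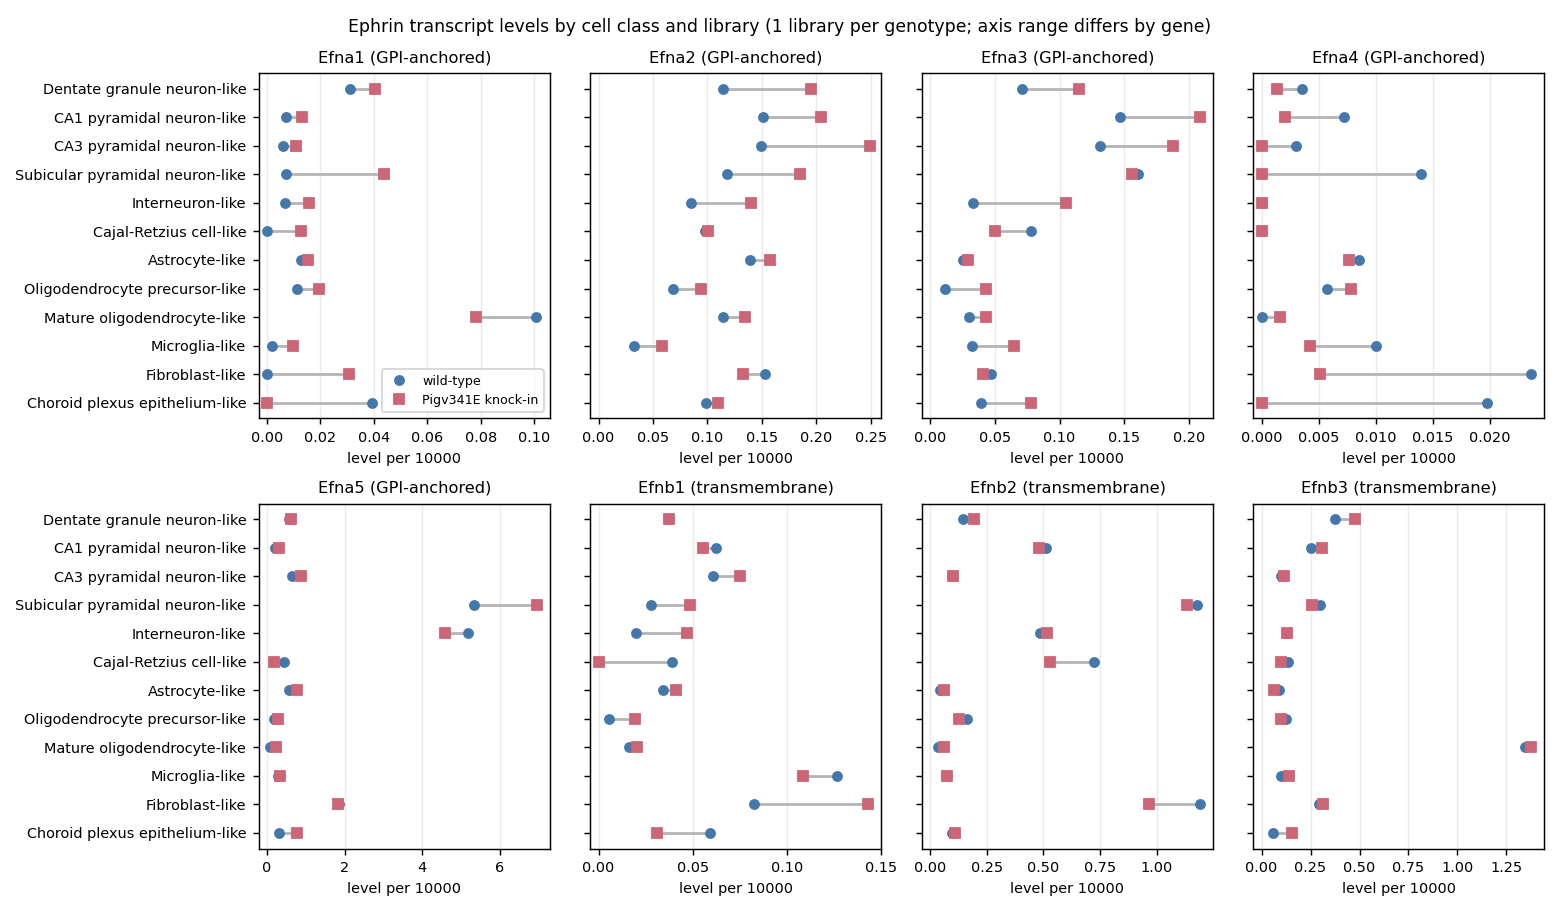
Level of each of the 8 ephrins (1 panel each, per 10000 of all values, linear axes of different range) in the 12 marker-named classes, with 1 point per library. Efna5 is highest in the subicular and interneuron-like classes, Efnb3 in mature oligodendrocyte-like cells and Efnb2 in subicular and fibroblast-like cells, in both libraries, and Efna4 is near 0 throughout.

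The share of cells with an Efna5 value above 0 gives a rough floor for RNA that does not belong to the cell. No class is known here to lack the gene, so the class of lowest share was taken, the mature oligodendrocyte-like cells, with 2.72% (1.95 to 3.68%) of the 1472 in the wild-type library and 7.33% (6.06 to 8.77%) of the 1487 in the other, at a median of 2215 and 2251 detected genes. The CA1 share, 7.46% (5.78 to 9.44%) and 9.80% (8.03 to 11.8%) at 4167 and 4289 detected genes, stood above that floor in the wild-type library and overlapped it in the knock-in library. Both are averages over clusters. Some knock-in clusters lay under 7.33%, among them the largest CA1 cluster, at 4.40% (2.92 to 6.34%), and a microglia-like one, at 6.09% (2.48 to 12.1%). The knock-in value is thus not a lower limit, and the overlap with CA1 does not settle whether CA1 cells hold the RNA. The dentate share, 23.1% (20.9 to 25.3%) and 24.6% (22.4 to 26.9%), stood well above it in both. After thinning, the floor class was at 0.951% (0.521 to 1.59%) and 1.88% (1.25 to 2.71%). The thinned CA1 shares, 1.42% (0.736 to 2.47%) and 2.90% (1.95 to 4.14%), overlapped these in both libraries. The thinned dentate shares, 5.68% (4.55 to 6.99%) and 5.65% (4.52 to 6.97%), stayed above the floor class in both.

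Within the CA1 pyramidal neuron-like class, Efna5 was not spread evenly. The class was made of 3 clusters, and in the 1 led by Pde11a, Ndst3 and Kit the level was 0.693 in the wild-type (206 cells) and 0.751 in the knock-in library (363 cells). In the largest, led by Galntl6 and Fibcd1, a marker of dorsal CA1, it was 0.041 (619 cells) and 0.056 (613 cells). The share of cells above 0 was 18.4% (13.4 to 24.4%) and 19.0% (15.1 to 23.4%) in the first, and 3.88% (2.50 to 5.71%) and 4.40% (2.92 to 6.34%) in the second. The highest single value was 15 and 26 in the first cluster and 2 and 4 in the second. The first cluster held 2.21% and 1.98% of all Efna5 values of the libraries and the second 0.392% and 0.247%, although the second had more cells. The median number of detected genes was 4258.5 and 4366 in the first cluster and 4129 and 4250 in the second, and thinned shares were not computed for them. The knock-in library held more cells of the first cluster, and with equal cluster weights the log2 ratio of the class went from 0.46 to 0.13.

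The highest knock-in level of Efna5 was that of an unnamed cluster. Among its leading genes were Efna5, Rgs6, Fhod3 and Dpp10, although Efna5 had no part in making the clusters, and it held 37 wild-type cells (0.522% of the library) and 363 knock-in cells (4.11%). It had more of the markers of CA3 pyramidal neurons than of any other class, 3 of 7, but more markers of another class among its leading genes. The level of Efna5 was 8.64 in wild-type and 12.3 in knock-in cells, a log2 ratio of 0.50. The share above 0 was 64.9% (24 of 37, 47.5 to 79.8%) for wild-type and 83.7% (304 of 363, 79.5 to 87.4%) for knock-in cells, and these intervals overlapped. The median value was 5 and 10, and the highest 30 and 61. This cluster held 4.99% of all Efna5 values of the wild-type library and 32.7% of those of the knock-in library. With 1 library per genotype, a cluster that is mostly of 1 library cannot be told apart from a feature of that library, and whether its size follows the genotype was not tested.

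**Figure D2:**
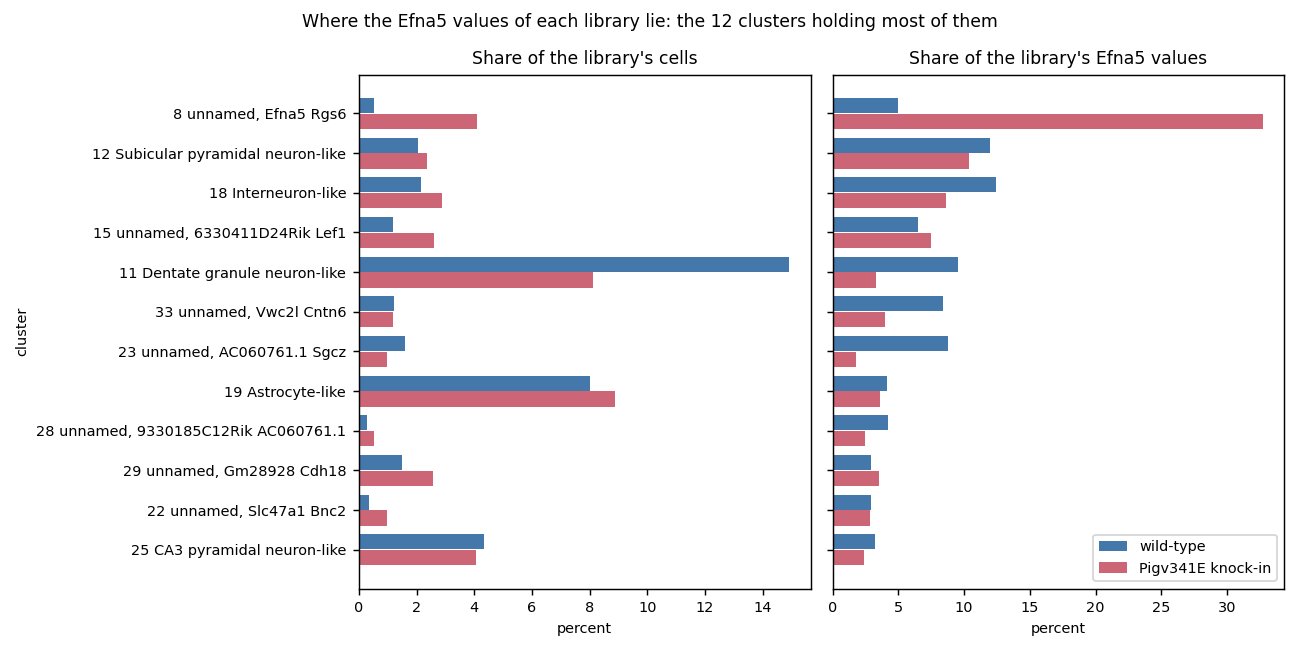
Percent of each library's cells (left) and of its Efna5 values (right) held by the 12 clusters with most of the Efna5 values, with 1 bar per library and cluster. The unnamed cluster led by Efna5 and Rgs6, at the top, holds 0.522% of the cells and 4.99% of the values in the wild-type library and 4.11% and 32.7% in the knock-in library.

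Several other unnamed clusters also carried high levels of Efna5, with differences between the libraries of either sign. In the cluster led by Vwc2l, Cntn6 and Sntb1 (87 and 106 cells) the level was 6.24 in wild-type against 5.14 in knock-in cells. In the cluster led by Lef1, Otx2os1 and Chrm2 (84 and 229 cells) it was 5.03 and 4.51, and in the cluster led by Sgcz, Pdzrn3 and Vwc2l (114 and 85 cells) 4.98 and 2.83. A cluster of 20 and 47 cells led by Plch1, Zfp804b and Rxfp1 was at 13.3 and 7.24, and all 20 wild-type cells had a value above 0. The cluster led by Cdh18, Rai14 and Cntnap4 (105 and 226 cells) was at 1.78 and 2.15, and a cluster led by the choroid plexus gene Htr2c (60 and 38 cells) at 2.77 and 3.50. A cluster of 25 and 85 cells led by Slc47a1, Bnc2 and Adamtsl3, was at 9.04 and 5.53, with 84.0% (63.9 to 95.5%) and 82.4% (72.6 to 89.8%) of cells above 0. The cluster led by Vwc2l, Tshz2 and Unc13c (39 and 90 cells) was at 2.48 and 1.17. The cluster with endothelial and mural genes (Flt1, Vtn and Ebf1, 47 and 74 cells) was at 0.0868 and 1.66. Those last levels rested on 2 and 9 cells above 0, with highest values of 2 and 38. The shares, 4.26% (0.520 to 14.5%) and 12.2% (5.71 to 21.8%), had overlapping intervals. The clusters of this paragraph are the 9 other unnamed ones with a level of at least 1 in either library. The wild-type level was the higher one in 6 of them and the lower one in 3. Over the 30 clusters with at least 30 cells in each library, Efna5 had the higher level on the knock-in side in 20 and the lower in 10, with a median log2 ratio of 0.24. Levels of Efna5 in the libraries followed each other across these clusters (Pearson r = 0.89 on log2 levels, 30 clusters, a description of clusters that share a library).

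**Figure D3:**
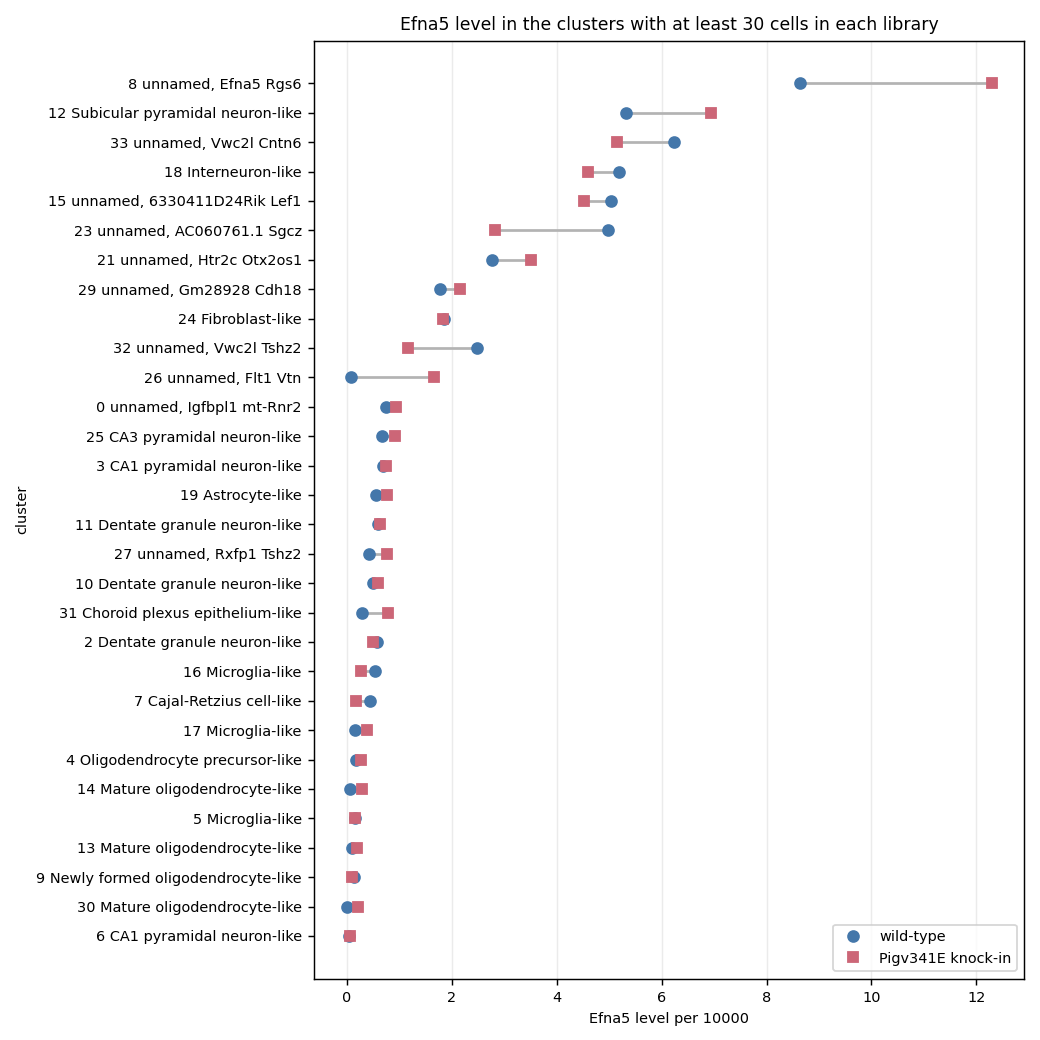
Efna5 level per 10000 (linear axis) in the 30 clusters with at least 30 cells in each library, ordered by level, with 1 point per library (circles wild-type, squares knock-in) joined by a line. The unnamed cluster led by Efna5 and Rgs6 is at the top with 8.64 and 12.3, and the knock-in point is the higher one in 20 clusters and the lower one in 10.

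Among the 12 classes, the knock-in level of Efna5 was the higher one in 9 and the lower one in 3, and 7 of the 12 reached the limits of the size rule. The rule was passed in the choroid plexus epithelium-like cells alone, which form the blood-cerebrospinal fluid barrier, with 0.296 in 59 wild-type and 0.781 in 68 knock-in cells, a log2 ratio of 1.16. In that class 1.49% of 3351 genes passed the rule in the same direction. The values came from few cells, 6 of 59 (10.2%, 3.82 to 20.8%) and 13 of 68 (19.1%, 10.6 to 30.5%), with highest single values of 7 and 16 and shares whose intervals overlapped. When the clusters were made from 15 principal components, the levels in this class were 1.57 and 1.72 and the log2 ratio 0.12. The summed level of 7 Cajal-Retzius markers in these cells was 0.276 and 1.98, higher in the knock-in library for 7 of 7, that of 8 dentate granule markers 3.47 and 5.27 (7 of 8 higher) and that of 10 interneuron markers 2.46 and 3.20 (3 of 10 higher). The sum of 6 subicular markers was 2.03 and 0.50 (1 of 6 higher), and that of 6 general excitatory markers 4.49 and 4.58 (3 of 6 higher). The subicular sum was lower in the knock-in library in every other class too. In several of those classes most of its 6 markers were higher, so the fall was not one of the list as a whole. The part of these marker sums in the Efna5 difference was not tested.

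The Cajal-Retzius cell-like cells, early-born neurons at the margin of the hippocampus, had the lowest log2 ratio of Efna5. The level was 0.449 in 61 wild-type and 0.176 in 94 knock-in cells, a log2 ratio of -0.99. It rested on 7 and 11 cells above 0, 11.5% (4.74 to 22.2%) and 11.7% (5.99 to 19.97%), so that the shares were nearly equal while the highest single values were 6 and 3. Neither level reached the limit of 0.5 per 10000, but with clusters from 15 principal components the levels were 0.507 and 0.170 and the log2 ratio -1.17.

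In mature oligodendrocyte-like cells the level of Efna5 was 0.0772 and 0.234 per 10000, a log2 ratio of 0.92 at levels below the limit. The share above 0 was higher in the knock-in library with intervals that did not overlap, as it was for 12.8% of the 13799 genes compared there. After thinning it was 0.951% (0.521 to 1.59%) and 1.88% (1.25 to 2.71%), and the intervals overlapped. Different clusters held most of this class in the libraries, with the cluster led by Prr5l and Sec14l5 in front in the wild-type (907 of 1472 cells) and the cluster led by Pde8a and Pde4b in the knock-in library (893 of 1487). Efna5 was at 0.066 and 0.296 in the first of these clusters and at 0.104 and 0.20 in the second. The sum of 10 interneuron markers was 17.9 and 17.7 in this class (9 of 10 higher in the knock-in library). That sum differed widely between other classes, with 21.0 and 17.5 in the dentate class and 0.612 and 0.720 in CA1. It therefore cannot serve as a gauge of stray interneuron RNA. That of 6 general excitatory markers was 4.47 and 4.42 (5 of 6 higher) and that of 6 subicular markers 1.59 and 0.383 (4 of 6 higher). The subicular sum was lower in the knock-in library in every class, for example at 1.34 and 0.140 (4 of 6 higher) in the dentate class. With most markers higher, such a fall was carried by few genes of the list and does not describe subicular RNA as a whole. The mitochondrially encoded share of all values in the mature oligodendrocyte-like cells was 0.458% and 0.758%. Whether stray neuronal RNA contributes was not tested.

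In microglia-like cells the share of cells with Efna5 was 5.72% (4.06 to 7.80%) in wild-type against 10.8% (8.78 to 13.1%) in knock-in cells, beside 23.8% of 16059 genes that were higher in the same way. Thinned shares were 2.16% and 2.81%, with overlapping intervals. In subicular cells, where 1.13% of 19379 genes were higher in the same way, the thinned intervals of Efna5 overlapped too (26.2 to 42.1% and 35.0 to 48.8%). The log2 ratio of that class was 0.38.

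Efna2 and Efna3, ligands that bind several EphA receptors, were low in every class. Efna2 lay between 0.032 and 0.153 per 10000 over the 12 classes of the wild-type library and between 0.058 and 0.249 in the knock-in library. The knock-in level was the higher one in 11 of 12 classes, with fibroblast-like cells (0.153 and 0.133) the exception. No share over genes of like low level was computed beside this count. Median detected genes were also higher in the knock-in library in every class, so the count is no result about Efna2 in particular. The widest gap was in CA3 pyramidal neuron-like cells, at 0.149 and 0.249, where 14.7% of cells (11.1 to 19.0%) and 24.6% (20.3 to 29.3%) had a value above 0, beside 2.98% of 19598 genes higher in the same way. After thinning the CA3 shares were 1.20% (0.328 to 3.05%) and 2.91% (1.46 to 5.15%) and overlapped. Dentate granule neuron-like cells gave 10.7% (9.20 to 12.4%) and 17.7% (15.8 to 19.8%), beside 18.0% of 17490 genes, and after thinning 1.30% (0.784 to 2.02%) and 2.34% (1.63 to 3.26%), which overlapped. Over all cells the level of Efna2 was 0.114 and 0.158, and with values of 1 set to 0 it was 0.0256 and 0.0270, so that the gap lay in cells with a value of 1.

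Efna3, known in the hippocampus for its protein on astrocytes, was at 0.0257 and 0.0290 in the astrocyte-like cells, where 1.76% (0.846 to 3.21%) and 2.42% (1.46 to 3.75%) of cells had a value above 0. The gene was higher in pyramidal neuron-like cells than there. The levels were 0.146 and 0.208 in CA1 pyramidal neuron-like cells, 0.131 and 0.187 in CA3 and 0.160 and 0.156 in subicular cells, while granule neuron-like cells were at 0.0708 and 0.115 and interneuron-like cells at 0.0328 and 0.105. The CA1 share of cells above 0 was 14.0% (11.7 to 16.5%) and 19.9% (17.5 to 22.5%) at 4167 and 4289 detected genes, against 2527 and 2708 detected genes in the astrocyte-like cells. After thinning to the same total the CA1 shares were 2.01% and 1.60% and the astrocyte shares 0.351% and 0.764%, and the intervals overlapped in each library (1.18 to 3.20% and 0.0426 to 1.26% in the wild-type, 0.917 to 2.59% and 0.281 to 1.66% in the knock-in library). The higher level in CA1 was thus not resolved in the thinned shares. The knock-in level of Efna3 was the higher one in 9 of 12 classes, a count that also has no share over genes of like level beside it. In CA1, 8.78% of 18794 genes compared were higher in the way Efna3 was.

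Efna1, a ligand first known from vessel cells, was highest in the mature oligodendrocyte-like cells of both libraries. The level there was 0.101 and 0.0784 per 10000, with 5.57% (4.45 to 6.87%) and 4.98% (3.93 to 6.21%) of cells above 0. In the other 11 classes it lay between 0 and 0.0437, and the 0 of 105 wild-type fibroblast-like cells allows a share of cells with a value of up to 2.86% when 3 cells are taken as the limit, or 3.45% by the exact interval. CA1 pyramidal neuron-like cells, with 4167 and 4289 detected genes, had 0.710% (0.261 to 1.54%) and 1.30% (0.694 to 2.21%), so that the class with fewer detected genes had the higher share. Thinned shares were 0.951% (0.521 to 1.59%) and 0.672% (0.323 to 1.23%) in the mature oligodendrocyte-like cells and 0% (up to 0.436%) and 0.20% (0.0242 to 0.721%) in CA1, and they overlapped in the knock-in library. Some single clusters of few cells were as high or higher. A dentate granule neuron-like cluster (63 and 57 cells, 4489 and 4642 detected genes) was at 0.112 and 0.121, with 11.1% and 12.3% of cells above 0. The newly formed oligodendrocyte-like cells (47 and 42 cells) were at 0.0973 and 0.131, with 8.51% and 7.14% above 0. A small unnamed cluster with endothelial and mural genes (Flt1, Vtn, Ebf1) held 0.0289 in 47 wild-type and 0.230 in 74 knock-in cells. These levels rested on few cells, with 2.13% and 9.46% of them above 0. Efna4, the remaining GPI-anchored ligand, had a value above 0 in 25 cells of each library, 0.352% (0.228 to 0.520%) and 0.283% (0.183 to 0.417%), with no class above 0.0236, so that nothing about its distribution was detectable.

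Efnb3, a transmembrane ligand best known as a barrier to axons crossing the midline and as an inhibitor of axon growth in myelin, was highest in later oligodendrocyte-like cells here. The mature oligodendrocyte-like cells were at 1.34 in wild-type against 1.38 in knock-in cells, for a log2 ratio of 0.034. Values above 0 were found in 44.3% (41.7 to 46.9%) and 49.1% (46.5 to 51.7%) of cells, and in 12.02% and 12.4% after thinning. The level was alike in the clusters that lead in each library, 1.33 and 1.43 in the first and 1.31 and 1.25 in the second. The smallest cluster of the class, led by Cryab, Mal and Cnp, was at 1.90 in 45 and 2.41 in 84 cells. The newly formed oligodendrocyte-like cells (47 and 42 cells) were at 1.29 and 0.946, and the precursors at 0.125 and 0.102, so that in both libraries the level of Efnb3 differed between precursors and later stages far more than between libraries.

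Among neurons Efnb3 was highest in the dentate granule neuron-like cells, at 0.373 in wild-type against 0.479 in knock-in cells, for a log2 ratio of 0.29. The share above 0 there was 30.3% (28.0 to 32.7%) and 39.5% (37.0 to 42.1%), beside the 18.0% of genes that were higher in the same way in this class. After thinning it was 3.49% (2.61 to 4.56%) and 4.89% (3.84 to 6.13%), and the intervals overlapped. Subicular cells followed at 0.299 and 0.258, fibroblast-like cells at 0.294 and 0.311 and CA1 pyramidal neuron-like cells at 0.251 and 0.306, and these 3 changed places between libraries. CA3 pyramidal neuron-like cells were lower, at 0.0975 and 0.112. The remaining classes lay between 0.0591 and 0.156, among them the astrocyte-like cells at 0.0899 and 0.0640. The lowest share of cells above 0, taken as the floor, was 1.69% (0.0429 to 9.09%) in the choroid plexus epithelium-like cells of the wild-type library, at 2390 detected genes, and 5.10% (3.66 to 6.87%) in the astrocyte-like cells of the knock-in library, at 2708.

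Efnb2, which encodes ephrin-B2, a ligand of arteries and of the postsynaptic side of excitatory synapses, was highest in classes as unlike as fibroblasts and neurons. Fibroblast-like cells were at 1.19 in wild-type against 0.965 in knock-in cells, and subicular cells at 1.18 and 1.13, so that the leading class was fibroblast-like in the first library and subicular in the second. Cajal-Retzius cell-like cells followed at 0.722 and 0.529, CA1 pyramidal neuron-like cells at 0.510 and 0.482 and interneuron-like cells at 0.485 and 0.517, and the last 2 changed places between libraries. Dentate granule neuron-like cells were at 0.145 and 0.194 and CA3 pyramidal neuron-like cells at 0.0975 and 0.0990. The share of cells above 0 was 39.2% (35.9 to 42.6%) and 38.3% (35.3 to 41.4%) in CA1 and 9.01% (6.16 to 12.6%) and 7.94% (5.42 to 11.1%) in CA3, at medians of 4103 to 4289 detected genes, and the intervals of these neighbouring pyramidal fields lay apart in both libraries. After thinning the shares were 4.14% (2.90 to 5.71%) in CA1 and 1.20% (0.328 to 3.05%) in CA3 of the wild-type library, which overlapped, and 4.40% (3.21 to 5.86%) and 0.794% (0.164 to 2.30%) in the knock-in library, which did not.

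The lowest Efnb2 levels were those of the mature oligodendrocyte-like, astrocyte-like and microglia-like cells, while oligodendrocyte precursor-like cells were higher, at 0.165 and 0.129. The mature oligodendrocyte-like cells were at 0.0339 and 0.0603, with 1.49% (0.939 to 2.25%) and 3.03% (2.22 to 4.03%) of cells above 0 as the floor, and astrocyte-like cells at 0.0428 and 0.0595. Over all cells Efnb2 was at 0.248 and 0.292, a log2 ratio of 0.17, and with equal cluster weights the log2 ratio was -0.0083. Within classes the log2 ratio lay between -0.38 (Cajal-Retzius cell-like) and 0.26 (dentate granule neuron-like), with the knock-in level above in 7 classes and below in 5. In the dentate class the share was 11.7% (10.1 to 13.5%) and 16.0% (14.1 to 18.0%), and after thinning 1.03% (0.575 to 1.69%) and 2.27% (1.57 to 3.18%), whose intervals overlapped.

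Efnb1, the X-linked member, known for its part in skull and neural crest development, was low everywhere. Its highest levels were 0.126 and 0.109 in microglia-like cells and 0.0825 and 0.143 in fibroblast-like cells, in that order in the first library and in reverse in the second. The microglial values were concentrated in the cluster led by P2ry12, Cx3cr1 and Tmem119, at 0.205 in 255 and 0.159 in 407 cells, with 14.5% and 13.02% of cells above 0. Over the whole class the share was 7.26% and 7.62%, and 0.927% and 1.29% after thinning. That cluster also had the most detected genes of the 3 large microglia-like clusters, with a median of 3480 and 3809 against 2378 and 2421 in the cluster led by Arhgap45 and Inpp5d, which was at 0.0982 and 0.060, and the part of depth in this was not tested.

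Of the 96 pairs of an ephrin and a class, 13 reached the limits of the size rule, 7 with a higher and 6 with a lower level among the knock-in cells, and the median log2 ratio was 0.034. Only the Efna5 pair in the choroid plexus epithelium-like cells passed it, beside 0.886% of the 46292 pairs of any gene and a class that reached the limits. The class with the highest level was the same in both libraries for Efna1, Efna5 and Efnb3, and for the other 5 the leading classes changed places. The plot of log2 ratios by class shows the spread of Efna5 in classes of few cells.

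**Figure D4:**
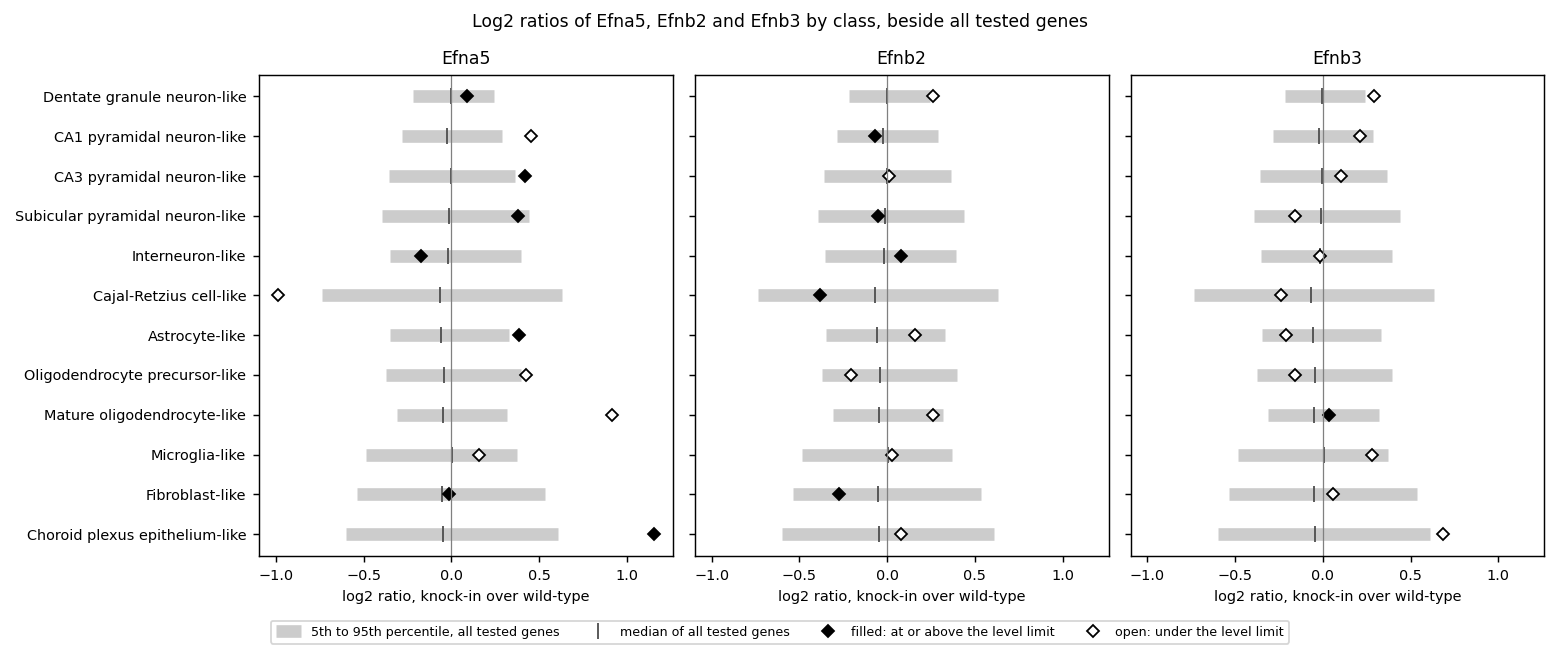
Log2 ratio of knock-in over wild-type (0.1 added to both levels) for Efna5, Efnb2 and Efnb3 (1 panel each) in the 12 classes, filled where the level and share limits were reached, over grey bars from the 5th to the 95th percentile of all genes that reached them and a tick at their median. Among filled points, only Efna5 in choroid plexus epithelium-like cells, at 1.16, reaches a size of 1.

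Not every Eph receptor had a value in every class, and Epha2 was at 0 in both libraries in Cajal-Retzius cell-like cells. Beside each ephrin, the Eph receptor with the highest summed values in the wild-type class where the ephrin peaks is given without any correction for gene length. For Efna5 and Efna3, in the subicular cells, it was Epha6, at 32.2 in wild-type against 28.0 in knock-in cells. For Efnb3 and Efna1, in the mature oligodendrocyte-like cells, it was Ephb1, at 4.84 and 4.54, and EphB1 is a receptor of ephrin-B proteins. Fibroblast-like cells, which led for Efnb2, Efna2 and Efna4 in the wild-type library, had Epha7 in front at 5.82 and 4.91. The Efna4 lead rested on 1 of 105 cells, and the Efna2 lead was 0.153 against 0.151 in CA1, so neither fixes a place of highest level. Microglia-like cells, which led for Efnb1, had Epha6 at 5.78 and 4.01, far under the 54.7 and 47.4 of the CA1 pyramidal neuron-like cells.

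Ligand and receptor did not share a pattern within CA1. Epha6 was at 33.5 and 29.1 in the cluster with more Efna5 and at 62.0 and 58.4 in the cluster with little, and Epha7 was at 3.07 and 2.73 in the first and 8.84 and 8.39 in the second. Across the 30 clusters of at least 30 wild-type cells, the log2 levels of Efna5 and Epha7 had a Pearson r of 0.024 (wild-type) and -0.065 (knock-in), and those of Efna5 and Epha4 -0.12 and -0.25. Epha10 came nearest to Efna5 among the receptors followed, with r of 0.54 and 0.48. For Efnb3 it was Ephb1, with 0.51 and 0.51, and for Efnb2 it was Epha10 in the wild-type library, with 0.60 and 0.52, and Ephb2 in the knock-in library, with 0.56 and 0.55. These are descriptions over 30 clusters that share a library and a depth.

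By the same measure over 9212 genes, the genes whose level was most like that of Efna5 were Grm8, a metabotropic glutamate receptor (r of 0.82 in wild-type against 0.79 in knock-in cells), Gm13832 (0.81 and 0.63) and Zfp618 (0.78 and 0.76). The genes nearest to Efnb2 were Sept6, a septin (0.86 and 0.77), Kcnt1, a sodium-activated potassium channel (0.85 and 0.78), and Gm26691 (0.83 and 0.76). Nearest to Efnb3 were Cpox, an enzyme of haem synthesis (0.89 and 0.88), Gm10471 (0.88 and 0.83) and Prima1, which anchors acetylcholinesterase in membranes (0.88 and 0.85). All were picked in the wild-type library, so that the knock-in values are the ones not used in the choice.

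The 14 Eph receptor genes were compared between the libraries in the same way. Over all cells 8 of 14 reached the limits and 0 passed the size rule in either direction, with a median log2 ratio of -0.26 beside -0.016 for all genes. In single classes 1 receptor passed it in 1 class. Epha6 was lower in the Cajal-Retzius cell-like cells of the knock-in library, at 8.05 and 3.63 per 10000, a log2 ratio of -1.13, in a class where 3.10% of 3964 genes passed the rule in either direction. That class had the largest share of genes past the rule of all 12.

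Of 27 genes that act with Eph receptors or ephrins, such as kinases, adaptors and exchange factors below the receptors and PDZ proteins that bind ephrin-B tails, 14 reached the limits over all cells and 1 passed the rule, beside 0.0966% of genes that passed it in the same direction. This was Abl1, a tyrosine kinase linked to Eph signalling, which was lower in the knock-in library and passed the rule in all 12 classes as well, beside 0.331% of all pairs. The list was drawn up with earlier results of these data known, so these calls are a description and no independent finding about Eph signalling. Its level lay between 3.11 and 16.0 over the classes in the wild-type and between 0.273 and 2.90 in the knock-in library. Besides Abl1, the rule was passed by Vav3, an exchange factor, which was higher in the choroid plexus epithelium-like cells at 0.0789 and 0.625 per 10000, a log2 ratio of 2.02, in the class where Efna5 passed it and where 1.49% of genes were higher in this way.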

How the data were processed

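The 8 ephrins, the receptor and signalling lists and the tests were chosen with earlier results of these data known. The authors deposited 1 table of whole numbers for 30223 genes and 15930 cells, treated here as a score: totals per cell lay in a narrow band (4846 to 14501), as depth-corrected values do, so the sequencing depth is unknown and no count model was used. GRCm38 and Seurat 3.0.0 are named in the submitters' processing notes, without a role. The aligner, the annotation, the cell filter and whether doublets were removed are not given in the sources used here.

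Cells were scaled to 10000, log-transformed and clustered with scanpy 1.11.5 and igraph 0.11.9 (on Python 3.11.15, with pandas 2.3.3 and numpy 2.4.6, scikit-learn 1.9.0 and scipy 1.17.1) on 2000 variable genes without sex-linked genes, ephrins and Eph receptors, with 30 principal components, 15 neighbours and Leiden resolution 1. The naming rule was chosen with clusters in view. A marker counted at 25% of cells and 1.5-fold the level elsewhere. The class with most markers (at least 3) gave the name unless another class reached 60% of its markers or led its 10 leading genes, and 15 clusters (983 wild-type and 1678 knock-in cells) stayed unnamed. Doublets were kept. Scrublet (expected rate 6%) marked 60 wild-type (0.846%) and 150 knock-in (1.70%) cells. The subicular class rests on 3 markers.

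The genes named are the 8 ephrins, receptor and signalling genes past the size rule, the receptor of highest level where each ephrin peaks, and the 3 genes whose pattern over clusters is most like that of Efna5, Efnb2 and Efnb3. Genes named as leading a cluster were picked from its 10 leading genes after these had been seen. Thinning to a total of 1000 was 1 random draw, and 0 cells were too shallow. The share of genes with intervals that do not overlap was added after the levels had been seen. The size rule was run on simulated sums for the wild-type astrocyte-like class, with changes larger than its limit and no spread between cells. That run does not bear on classes of few cells. Alternatives were other filters, pseudocounts, weights and clusterings. Matplotlib 3.10.9 drew the figures, and 0 columns of the table were left unused.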

Additional observations from a re-analysis of the deposited data

How the results depend on the processing

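No paired analysis was possible because each genotype is 1 pooled library. The log2 ratio of Efna5 over all cells, 0.70, was 0.29 without the unnamed cluster led by Efna5 and Rgs6, 0.10 with equal cluster weights and 0.55 with 0.5 added to the levels, and at most 0.79 without any 1 cluster. With values of 1 set to 0, Efna2 (0.27) went to 0.016, Efna3 (0.28) to 0.076 and Efnb3 (-0.054) to -0.18. With 0.01 or 0.5 added, Efna2 was at 0.44 and 0.0998 and Efna3 at 0.55 and 0.090. Equal cluster weights gave -0.0083 for Efnb2 (0.17) and 0.12 for Efnb3, and Efnb3 was at 0.13 without the oligodendrocyte-like cluster that leads in the wild-type library, so its sign was not stable. The 1 pair past the size rule became 0 with 0.5 added to the levels and 0 with limits of 1 per 10000 and 10% of cells. With 15 principal components its log2 ratio was 0.12, so the call was lost, while Efna5 in Cajal-Retzius cell-like cells was at -1.17 with a wild-type level of 0.507, past the limits of ratio and level in the other direction. With values of 1 set to 0, the leading class was the same in both libraries for 5 ephrins, in place of 3. Over classes, 1 log2 ratio of Efna5, Efnb2 or Efnb3 moved past counting error, that of Efna5 in CA3 pyramidal neuron-like cells, from 0.42 to -0.35 at resolution 2. The subicular class got no name with 15 principal components and so has no value there. Leaving out the called doublets or the 50 cells under 500 genes or over 10% mitochondrial moved none of the 8 ratios over all cells past counting error. Shares of cells fell by construction when cells were thinned or a value of 2 was required (Efna5 13.2% and 19.3% at 2 or more). Counts for the receptor and signalling lists lay between 13 and 16 pairs (14 as reported), the most with limits of 0.2 per 10000 and 2% of cells. With 1 library per genotype, these alternatives measure the processing and not the variation between mice, and the low levels of Efna1, Efna4 and Efnb1 set what could be detected.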
